A study of Saccharomyces cerevisiae and Saccharomyces paradoxus with 16 samples.

Results

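Cryptic unstable transcripts (CUTs) of Sigma1278b, a *S.cerevisiae* laboratory strain known for filamentous growth, were described from the annotation deposited for this strain. Every CUT listed there was taken, 2393 of the 9377 CUTs in the 4 annotations of the study, and its average coverage in *rrp6*Δ was set beside its average coverage in WT. The study sequenced strand-specific poly(A) RNA of 16 cultures grown in YPD at 30 °C to mid-log phase, with 2 libraries for each of 8 groups, WT and *rrp6*Δ in S288c, Sigma1278b, JAY291 and the *S.paradoxus* strain N17. The Sigma1278b WT strain carries ura3-52, leu2::hisG and his3::hisG. The Sigma1278b *rrp6*Δ strain carries rrp6::KanMX with the alleles his3delta1, leu2delta0 and ura3delta0. Both genotypes are therefore auxotrophic for the same markers through different alleles, the study lists them as opposite mating types, and they came from different laboratories. Such differences between the strains and the loss of Rrp6p cannot be told apart in this contrast. The annotation lists CUTs only, so the RRP6 transcript itself was not analysed here and the labels could not be checked against it.

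CUTs are transcribed by RNA polymerase II, terminated through the Nrd1-Nab3-Sen1 pathway, given a short poly(A) tail by the TRAMP complex and degraded in the nucleus by the exosome. Rrp6p is an exonuclease of the nuclear exosome, so deleting RRP6 stabilises these RNAs, many of which start at nucleosome free regions shared with protein-coding genes. CUTs entered the annotation for their raised coverage in *rrp6*Δ, so a higher coverage in *rrp6*Δ is what defines the list and is given here as a description. The annotation used here gives averages over the replicates, so each CUT has 1 WT value and 1 *rrp6*Δ value with no replicate error. CUTs of 1 annotation are not replicates of a genotype, and no difference below carries a test. Positions refer to the assembly of Sigma1278b itself and count from 1. Of the 2021 CUTs on chromosomes other than the label XII, 239 (11.8%) overlapped an S288c CUT of the same strand at the same coordinates, so S288c gene positions were not transferred, and CUTs are named by their deposited numbers.

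Coverage was lower in WT for each of the 2393 CUTs. Average coverage, the mean number of reads over a nucleotide per 10000000 mapped reads, had quartiles of 0.275, 0.648 and 1.68 in WT and of 3.78, 6.17 and 11.1 in *rrp6*Δ. WT coverage was below 1 for 1496 CUTs (62.5%), whereas the lowest *rrp6*Δ coverage was 1.54. The authors removed regions of low average *rrp6*Δ coverage and describe no such filter on WT coverage. This contrast is therefore partly set by how the list was made. The ratio of *rrp6*Δ to WT coverage, with 1 added to both, had a median of 3.64 and quartiles of 2.90 and 4.98, and it ran from 1.32 to 32.7. It reached 2 for 2377 CUTs (99.3%), 4 for 983 CUTs (41.1%) and 10 for 113 CUTs (4.72%). The CUTs nearest to these limits had ratios of 1.99 and 2.02, of 3.9999 and 4.0023, and of 9.98 and 10.1. Because 1 is added to both values, the ratio cannot exceed the *rrp6*Δ coverage plus 1. A ratio of 4 was therefore out of reach for the 329 CUTs (13.7%) with an *rrp6*Δ coverage under 3, and a ratio of 10 for the 1619 CUTs under 9. Among the 774 CUTs at 9 or above, 14.6% had a ratio of at least 10.

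**Figure D1:**
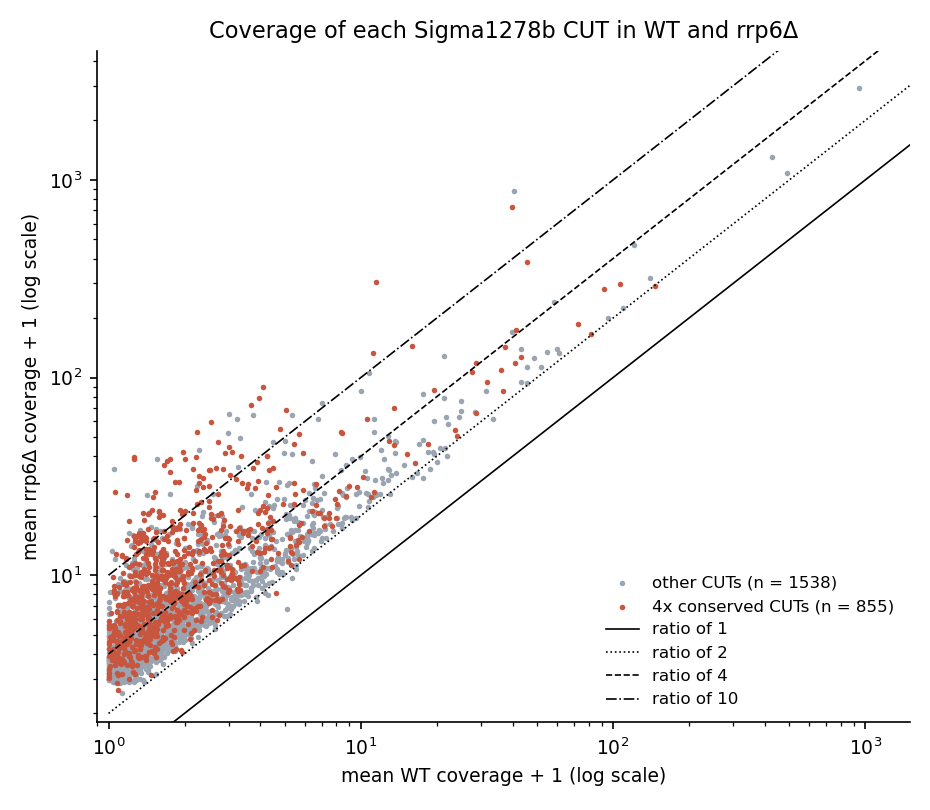
Average WT coverage plus 1 (x axis, log scale) against average *rrp6*Δ coverage plus 1 (y axis, log scale) for each of the 2393 Sigma1278b CUTs, 1 point per CUT, with lines at ratios of 1, 2, 4 and 10. All points lie above the line of 1, and the 113 points above the line of 10 are mostly 4x conserved CUTs (87 of them, or 77.0%, against 35.7% of all CUTs).

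Of the 5 CUTs with the highest ratios, 4 had a WT coverage under the median of the annotation. CUT4254, on chromosome X from 117644 to 117890 on the minus strand, went from 0.053 in WT to 33.4 in *rrp6*Δ, a ratio of 32.7. CUT4275, on chromosome XI from 582498 to 582640 on the minus strand, had 0.265 and 38.5, a ratio of 31.2. CUT4270, under the label XII from 562207 to 562760 on the plus strand, had 0.266 and 37.6, a ratio of 30.5. In *rrp6*Δ these 3 ranked at percentiles of 94.4, 95.3 and 95.1 among all CUTs. CUT4375, on chromosome X from 180246 to 180799 on the minus strand, differed from these in that it was already well covered in WT, with a ratio of 26.4 between 303 in *rrp6*Δ and 10.5 in WT. CUT4274, under the label XII from 818200 to 819536 on the minus strand, had 0.560 and 37.9, a ratio of 24.97.

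Of these 5 CUTs, 3 are 4x conserved, that is, on the list of 855 CUTs shared by all 4 strains, and so have a partner in JAY291 and in N17. The partner of CUT4375 went from 6.39 (WT) to 219 (*rrp6*Δ) in JAY291 and from 9.16 to 238 in N17, so its ratios of 29.7 and 23.5 lay close to the 26.4 of Sigma1278b. The partner of CUT4270 had ratios of 17.7 in JAY291 and 18.7 in N17. For CUT4275 the levels were less alike. Its JAY291 partner went from 15.4 (WT) to 438 (*rrp6*Δ), a ratio of 26.7, whereas its N17 partner was listed at 0 (WT) and 10.8 (*rrp6*Δ), a ratio of 11.8. Only 1 averaged value per strain and genotype was used, and these differences between strains were not tested.

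The CUTs with the highest coverage were a different set, highly covered in WT as well. CUT4383, on chromosome VII from 871182 to 871470 on the minus strand, had the highest coverage in both genotypes, 2904 in *rrp6*Δ against 944 in WT, a ratio of 3.08. CUT4382, on chromosome V from 456945 to 458037 on the plus strand, had 424 and 1311, a ratio of 3.09. CUT4381, on chromosome VIII from 460822 to 461010 on the plus strand, had 490 and 1082, a ratio of 2.21. The next in *rrp6*Δ coverage were lower in WT by an order of magnitude and had larger ratios. CUT4380, on chromosome XV from 751560 to 753529 on the minus strand, had 878 in *rrp6*Δ against 39.4 in WT, a ratio of 21.8. CUT4379, on chromosome XV from 92779 to 92896 on the minus strand, had 38.8 and 725, a ratio of 18.2, and is the only 4x conserved CUT of these 5. Places 4 and 5 in WT coverage were held by CUT4373, on chromosome VII from 277280 to 278292 on the minus strand (WT 145, *rrp6*Δ 290.0), and CUT4376, on chromosome IV from 215482 to 215727 on the plus strand (139 and 316). Their ratios of 1.99 and 2.27 were far below the median of the annotation.

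A ratio under 2 was found for 16 CUTs (0.669%), and these were long and well covered in WT, with a median length of 983.5 nt and a median WT coverage of 13.5. The lowest was that of CUT3137, on chromosome XV from 569678 to 571200 on the plus strand, with 5.72 in *rrp6*Δ against 4.08 in WT (ratio 1.32). CUT4435 (chromosome I, 52480 to 53924, plus strand) followed, with 3.63 and 7.10 (ratio 1.75). It is 4x conserved, and its partners had ratios of 3.41 in JAY291 and 3.84 in N17. The next were CUT4235 on chromosome XIV (353455 to 355737, minus strand, ratio 1.76), CUT3597 on chromosome VIII (528558 to 529704, plus strand, ratio 1.799) and CUT4253 on chromosome II (323339 to 324473, plus strand, ratio 1.83). WT coverage in these 3 was 16.7, 4.35 and 17.8.

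**Figure D2:**
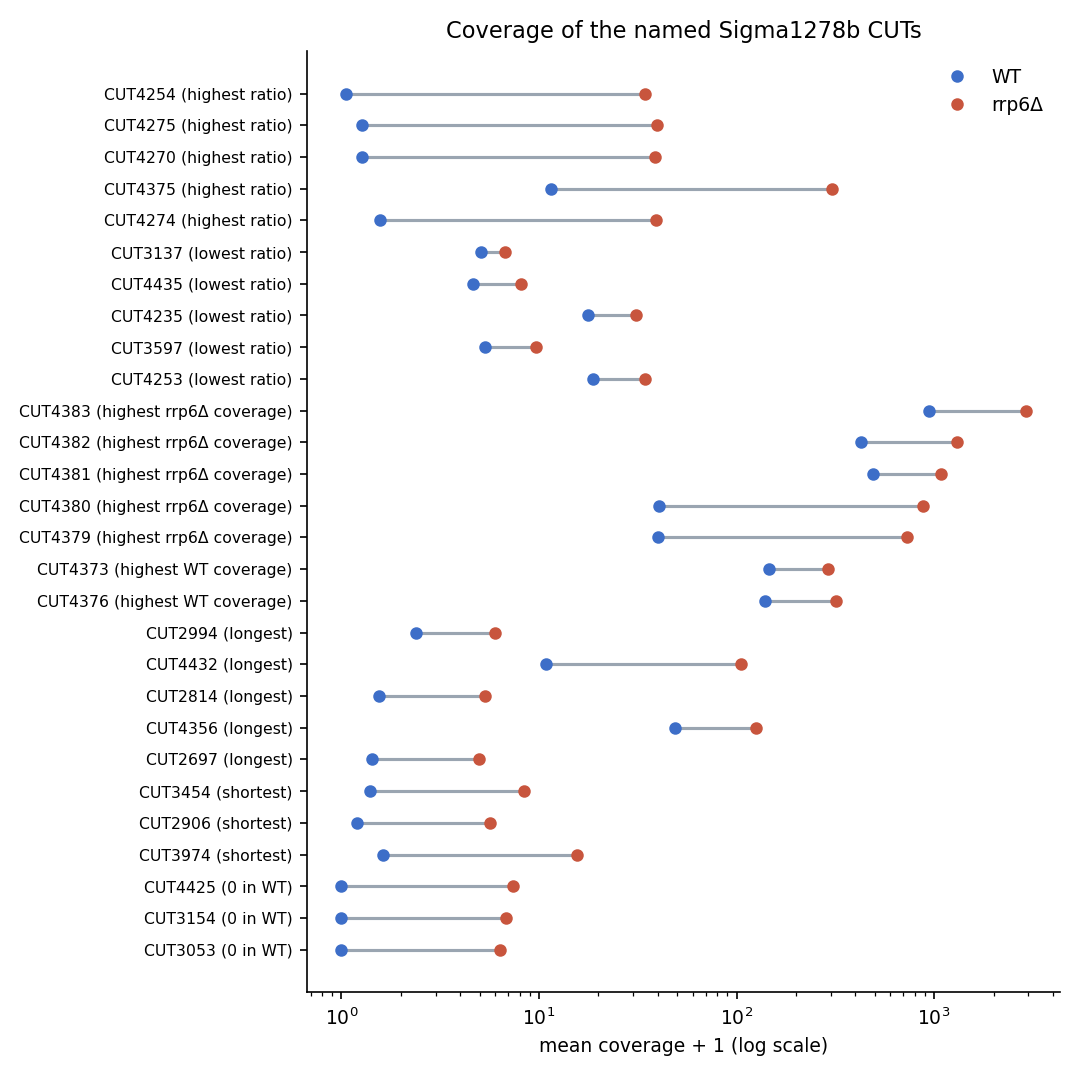
Average coverage plus 1 (x axis, log scale) of the named Sigma1278b CUTs, grouped by why each was chosen (y axis), with WT in blue, *rrp6*Δ in red and a line between them. The CUTs with the highest ratios span more than an order of magnitude, whereas those with the highest WT coverage are joined by short lines (ratios from 1.99 to 3.09 for the 5 highest).

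Across CUTs, WT and *rrp6*Δ coverage ranked alike (Spearman's rho 0.742 over 2393 CUTs that share the same libraries), while WT coverage and ratio ran weakly in opposite directions (rho -0.243). WT coverage is the denominator of the ratio, and the added 1 flattens the ratio where WT coverage is under 1, so both this value and the medians by WT coverage are partly set by the formula. CUTs with a WT coverage from 0.25 to 1 numbered 952 and had a median ratio of 3.94, with 48.4% at 4 or above. The 502 CUTs above 0 and under 0.25 had a median of 3.90. From a WT coverage of 1 to 4 the median ratio was 3.33 (635 CUTs), from 4 to 16 it was 2.76 (199 CUTs), and at 16 or more it was 2.59 (63 CUTs, 15.9% at 4 or above). Among the 113 CUTs with a ratio of at least 10, 44 had a WT coverage of at least 1, and their median coverage went from 1.93 (WT) to 41.6 (*rrp6*Δ). The other 69 had medians of 0.371 and 15.8. Gene positions were not used, so reads of a gene overlapping on the same strand could not be told from those of a CUT.

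WT coverage was listed at 0 for 42 CUTs. They were short, with a median of 197.5 nt against 438 nt in the whole annotation, and weak, with a median *rrp6*Δ coverage of 2.76. Of the 42, 22 were shorter than 200 nt, as were 12.3% of all CUTs. Of the same 42, 6 (14.3%) were 4x conserved, against 35.7% of all CUTs and 9.49% of those under 200 nt. The highest *rrp6*Δ coverage among them was 6.34 for CUT4425, on chromosome III from 31288 to 31959 on the minus strand, followed by 5.79 for CUT3154 (229 nt) and 5.34 for CUT3053 (138 nt), both on the minus strand under the label XII. The highest *rrp6*Δ coverage of this group was thus close to the median of all CUTs.

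**Figure D3:**
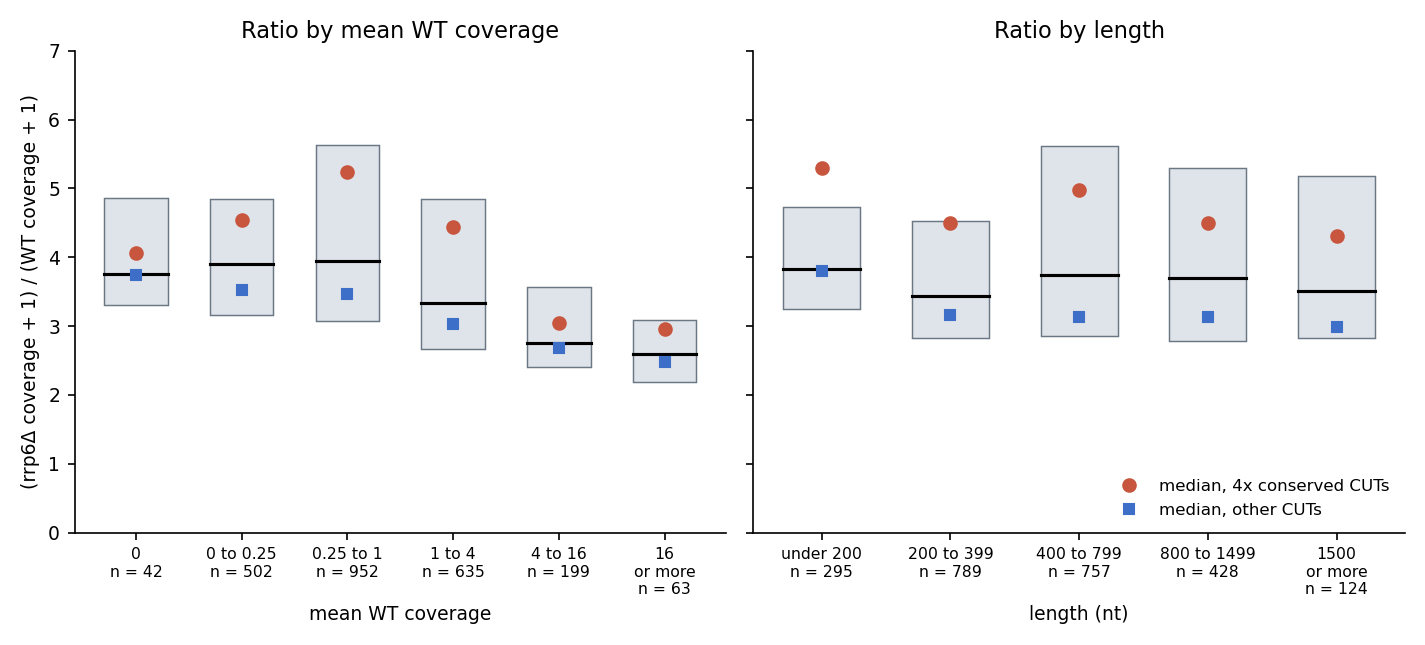
Ratio of *rrp6*Δ to WT coverage (y axis, 1 added to both) by average WT coverage (left) and by length in nt (right), where boxes span the quartiles of all CUTs in a class, black lines are their medians, and red circles and blue squares are the medians of 4x conserved and other CUTs. The medians fall from 3.94 at a WT coverage of 0.25 to 1 to 2.59 at 16 or more, differ little with length, and are higher in 4x conserved CUTs in every class.

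Length and the ratio had a Spearman's rho of 0.006 across CUTs, and longer CUTs were covered somewhat more in both genotypes (rho 0.162 in WT and 0.147 in *rrp6*Δ). In the shortest 25% of CUTs, with a median of 200 nt, median coverage was 0.493 (WT) and 5.28 (*rrp6*Δ). In the longest 25%, with a median of 1094 nt, it was 0.867 and 7.197, and the median ratios were 3.65 and 3.67. The direction of this small difference depended on the settings. The longest less the shortest 25% gave 0.021 with 1 added to both coverages and 0.227 with a minimum length of 200 nt. It gave -1.99 with 0.1 added, and -0.0198 without the label XII. A ratio of at least 4 was found for 44.1% of the CUTs under 200 nt, against 41.1% of all. A ratio of at least 10, which 4.72% of all CUTs reached, was found for 3 of the 295 CUTs under 200 nt (1.02%), for 53 of the 757 CUTs from 400 to under 800 nt and for 3 of the 124 CUTs of 1500 nt or more (2.42%). That limit needs an *rrp6*Δ coverage of at least 9. Median *rrp6*Δ coverage was 4.95 under 200 nt, 6.05 from 400 to under 800 nt and 8.15 at 1500 nt or more. The part of coverage in these shares was not tested.

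The 5 longest CUTs differed widely in level. CUT2994, the longest with 4060 nt (chromosome X, 26006 to 30065, minus strand), was weak, with 4.98 in *rrp6*Δ against 1.39 in WT. CUT4432, with 3980 nt on the plus strand under the label XII (628273 to 632252), had 9.80 and 104, a ratio of 9.72. By coordinates, CUT3470, of 130 nt under the same label, lies wholly within CUT4432 on the opposite strand. That label holds CUTs of chromosomes XII and XIII, and neither CUT could be placed, so they may lie on separate chromosomes. CUT2814 (chromosome V, 348129 to 351514, plus strand, 3386 nt) had 0.554 and 4.33. It is the only 4x conserved CUT of these 5, and its partners had similar lengths of 3294 nt in JAY291 and 3219 nt in N17. CUT4356 (chromosome IX, 167666 to 170889, minus strand, 3224 nt) had 47.7 and 125. CUT2697 (chromosome VIII, 468628 to 471804, minus strand, 3177 nt) had 0.427 and 3.95. The shortest CUTs had higher ratios than most of these. They were CUT3454 (110 nt, chromosome VII, ratio 6.01), CUT2906 (111 nt, label XII, ratio 4.73) and CUT3974 (112 nt, chromosome XVI, ratio 9.56).

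The 4x conserved CUTs were 855 of the 2393 (35.7%). The other CUTs are a mixed set. They include CUTs that the authors left out of the conservation analysis for poor alignment, and CUTs found in only some of the other strains. The list was chosen from CUTs called in the same libraries, with some filtered CUTs brought back to complete it, so its values describe the list and give no independent support. Median ratios were 4.68 in 4x conserved and 3.27 in other CUTs. Median WT coverage was nearly equal (0.671 and 0.631), whereas median *rrp6*Δ coverage, on which CUTs were also filtered, was 7.95 and 5.20. A ratio of at least 4 was reached by 62.7% of 4x conserved and 29.1% of other CUTs, against 41.1% of all. A ratio of at least 10, against 4.72% of all, was reached by 10.2% and 1.69%. The order held in each class of WT coverage. At a similar WT coverage the ratio follows the *rrp6*Δ coverage, so this restates the difference in *rrp6*Δ coverage and is no separate check. In CUTs with a WT coverage from 0.25 to 1, the medians were 5.24 for the 386 conserved and 3.46 for the 566 other CUTs, and from 1 to 4 they were 4.44 and 3.03. At a WT coverage of 16 or more, with 21 and 42 CUTs, they were 2.95 and 2.47. The order also held in each length class, among them the 28 conserved CUTs under 200 nt with a median ratio of 5.30 against 3.80. Of the CUTs under 200 nt, 9.49% were 4x conserved, whereas 50.9% of those from 800 to under 1500 nt were. The list thus also differed from the other CUTs in length, with medians of 566 and 370 nt, and the part of length in the result was not tested.

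Among the 855 CUTs, a ratio of at least 4 was found for 536 in Sigma1278b, for 621 of their partners in JAY291 and for 494 in N17, or 62.7%, 72.6% and 57.8% of the list. In 464 cases both Sigma1278b and JAY291 reached 4, which is 86.6% of the Sigma1278b list and 74.7% of the JAY291 list. With N17 the number was 354, or 66.0% of the Sigma1278b list and 71.7% of the N17 list. These shares are to be read beside the 72.6% (JAY291), 57.8% (N17) and 62.7% (Sigma1278b) of all 855.

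Plus strand CUTs numbered 1248 and covered 739 kb, and minus strand CUTs numbered 1145 and covered 673 kb. Minus strand CUTs had a median ratio of 3.78 and plus strand CUTs of 3.54, with median *rrp6*Δ coverage of 6.53 and 5.91 and WT coverage of 0.690 and 0.614. A ratio of at least 4 was found for 44.3% of minus strand and 38.1% of plus strand CUTs. The minus strand had the higher median ratio under 14 of the 15 chromosome labels, from 4.18 against 3.42 on chromosome XV to 3.71 on either strand of chromosome VII, where the strands differed only in the next decimal. Chromosome V was the exception, with 3.91 on the minus and 4.15 on the plus strand. The plus strand median less the minus strand median was between -0.34 and -0.31 in each class with a WT coverage of 0.25 or more. It was -0.040 in CUTs above 0 and under 0.25, and the 42 CUTs at 0 in WT had a higher median on the plus strand (3.90 against 3.75). In the other annotations, the minus strand medians were 3.36 in S288c, 4.395 in JAY291 and 3.60 in N17 and those of the plus strand 3.32, 4.28 and 3.42. The difference in Sigma1278b, at -0.24, was the widest of the 4 annotations, and this was not tested.

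**Figure D4:**
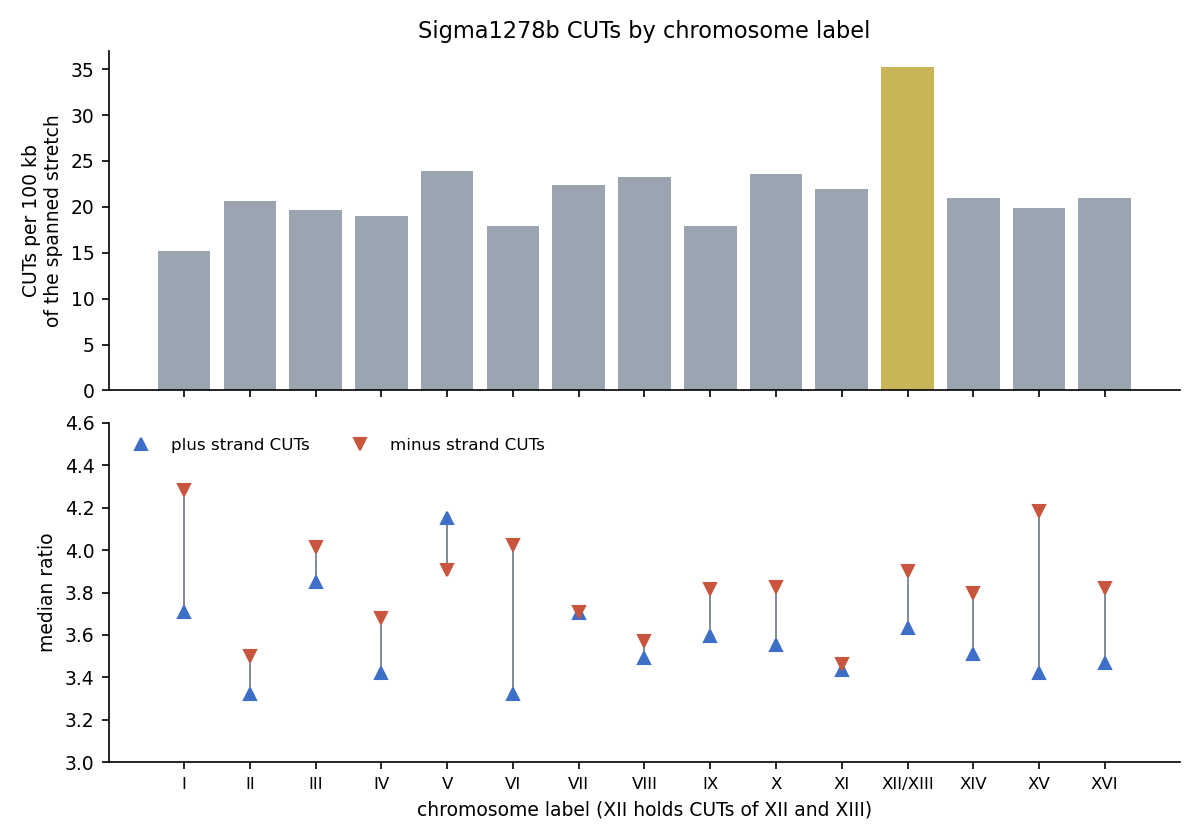
Sigma1278b CUTs per 100 kb between the first and the last CUT (top) and median ratio of *rrp6*Δ to WT coverage of plus and minus strand CUTs (bottom, y axis starting at 3) by chromosome label. The label XII, which holds CUTs of chromosomes XII and XIII, stands out with 35.2 CUTs per 100 kb, and the minus strand median is the higher under 14 of 15 labels.

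No CUT carries the label XIII, and 372 carry XII. Under this label, 14 same-strand neighbours overlapped, against 0 under the other labels. For the 144 of these CUTs that are 4x conserved, the contig of the JAY291 partner gave the chromosome, which was XII for 83 and XIII for 61. Under the other labels, all 711 conserved CUTs had a partner on the chromosome of their label. The 83 CUTs placed on XII had a median length of 567 nt and a median ratio of 4.79, and the 61 on XIII had 541 nt and 4.92. CUT4270, the third in ratio, was among those placed on XIII. The remaining 228 CUTs labelled XII could be on either chromosome.

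On the other chromosomes, CUTs occurred at 15.2 to 23.9 per 100 kb between the first and the last CUT, with chromosome I the sparsest and V the densest. Median ratios ran from 3.40 on chromosome II to 4.02 on V, where 50.7% of 136 CUTs had a ratio of at least 4. The order depended on the settings, with XIV highest and XI lowest when 0.1 was added in place of 1, III and II with a minimum length of 200 nt, and V and XI without the 25% of CUTs lowest in *rrp6*Δ. The range is small beside the spread within a chromosome, as the quartiles on chromosome V were 2.99 and 5.92. CUTs within 30 kb of the outermost CUT of a chromosome numbered 189, or 22.5 per 100 kb, close to the 21.4 per 100 kb more than 240 kb inside. Median ratios of these CUTs were 3.54 and 3.56. The share of 4x conserved CUTs differed, with 21.7% in the outer 30 kb and 36.8% more than 240 kb inside. Poorly aligned CUTs, which the authors did not assess for conservation, count here as not conserved. The densest 20 kb, on chromosome XI from 577526, held the starts of 14 CUTs, CUT4275 among them. The longest stretch between neighbouring CUTs without any annotation was 35645 bp, on chromosome X from 668988 to 704632.

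Outside the label XII, 236 of 2021 CUTs (11.7%) overlapped a CUT of the opposite strand, in 119 pairs that were spread about evenly over overlaps of the 3′ ends (40), overlaps of the 5′ ends (39) and a CUT within another (40). With the label XII, where CUTs of separate chromosomes can seem to overlap, it was 309 of 2393 (12.9%). Divergent neighbours, with starts at most 300 bp apart, were found for 186 CUTs (9.20%) in 93 pairs. In 32 of these pairs the starts overlapped, and those pairs are also among the overlaps of the 5′ ends. The median signed distance between starts was 78 bp, with overlapping starts counted as negative. CUTs of divergent pairs had medians of 1.05 (WT) and 8.27 (*rrp6*Δ), against 0.614 and 5.98 for the others. Both values were thus higher, and the median ratios of 3.70 and 3.60 were close. Across the 93 divergent pairs, the partners' *rrp6*Δ coverage had a Spearman's rho of 0.240 and their ratios of -0.031. Same-strand neighbours, 1993 pairs with a median gap of 6016 bp, had a rho of 0.009 for their ratios. Partners share libraries and local mappability, and these values are descriptions.

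Several named CUTs had a divergent partner of quite different strength. CUT4275, the second in ratio, starts 205 bp from CUT4066 on the plus strand (chromosome XI, 582846 to 583243), which went from 4.69 (WT) to 16.9 (*rrp6*Δ), a ratio of 3.14. CUT4356, with a ratio of 2.59, starts 204 bp from CUT4180 on the plus strand (chromosome IX, 171094 to 171956). CUT4180 went from 0.185 (WT) to 24.3 (*rrp6*Δ), a ratio of 21.4, and the ratios of its partners were 13.1 in JAY291 and 13.3 in N17. CUT4381, highly covered in both genotypes with a ratio of 2.21, starts 36 bp from CUT3779 on the minus strand, which had 0.793 and 10.5, a ratio of 6.42. CUT4253 starts 171 bp from CUT2327 on the minus strand, which had 0.658 and 2.84, a ratio of 2.32 against the 1.83 of CUT4253. In these 4 pairs the partner with the lower WT coverage had the higher ratio. The 2 other divergent pairs with a named CUT went the other way. CUT4425, at 0 in WT, had a ratio of 7.34, and CUT3422, at 0.014, one of 8.08. Under the label XII, CUT2948, with a WT coverage of 0.359, had a ratio of 4.26 against the 24.97 of CUT4274. Neither CUT of this last pair could be placed on XII or XIII, so they may lie on separate chromosomes. These pairs were named for the extreme values of 1 of their CUTs and say nothing of divergent pairs in general.

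Summed coverage was held by few CUTs, and by more of them in *rrp6*Δ than in WT. When coverage was summed over the length of each CUT, 50% of the WT sum was held by 23 CUTs and 50% of the *rrp6*Δ sum by 62. The 240 CUTs (10%) with the highest sums held 79.9% in WT and 66.6% in *rrp6*Δ, and 152 CUTs belonged to both groups of 240 (63.3% of each). The 1196 CUTs with the lowest sums held 2.78% of the WT and 7.21% of the *rrp6*Δ sum. CUTs were kept for a raised and sufficient *rrp6*Δ coverage, with no lower limit described for WT. Selection and genotype therefore cannot be told apart in these differences between WT and *rrp6*Δ. CUT4380, CUT4382 and CUT4383 together held 16.6% of the *rrp6*Δ and 15.8% of the WT sum. The sum over all CUTs was 4.67 times as high in *rrp6*Δ as in WT, and 4.62 times without these 3.

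**Figure D5:**
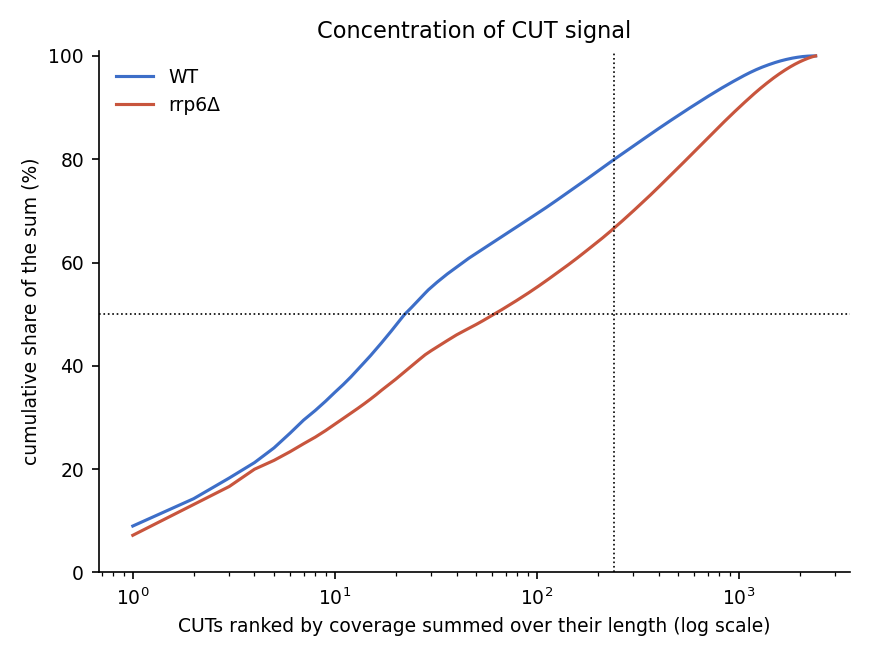
Cumulative share of the coverage summed over CUT length (y axis, %) against the rank of the 2393 CUTs by that sum (x axis, log scale), separately ranked in WT (blue) and *rrp6*Δ (red), with dotted lines at 50% and at 240 CUTs. The WT curve lies above the *rrp6*Δ curve, reaching 50% at 23 instead of 62 CUTs. The list was filtered for low *rrp6*Δ coverage, with no such filter described for WT.

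Beside the other annotations, the Sigma1278b ratios were intermediate. Median ratios were 3.34 in S288c, 3.64 in Sigma1278b, 4.34 in JAY291 and 3.52 in N17. A ratio of at least 2 was found for 99% of CUTs in S288c, 99.3% in Sigma1278b, 99.8% in JAY291, 89% in N17 and 96.4% in all 4 annotations. For a ratio of at least 4 these shares were 31.7%, 41.1%, 57.5%, 40.8% and 42.9%, and for a ratio of at least 10 they were 1.7%, 4.72%, 7.41%, 8.15% and 5.68%. The lowest ratio in Sigma1278b was 1.32, whereas each of the other annotations held CUTs with a ratio below 1 (lowest 0.990, 0.688 and 0.733 in S288c, JAY291 and N17). These values stand side by side without a test, and the annotations were made separately for each strain. The N17 libraries also differed from the others in their rounds of poly(A) selection.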

How the data were processed

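Coverage values were made by the authors. After removal of rDNA reads, unique alignments with up to 2 mismatches to the strain's assembly were kept (Bowtie 0.12.7 and bedtools 2.16.2, per the submitters' processing notes). Signal in the deposited annotation is per-nucleotide coverage, corrected for first nucleotide bias and mappability, scaled to 10000000 mapped reads, averaged by the authors over both replicates and over each CUT. In Sigma1278b, replicate 1 went through 1 round of poly(A) selection and replicate 2 through 2 rounds with another kit. S288c and JAY291 were treated alike, whereas both N17 replicates of either genotype went through 2 rounds. Single replicates, mapped reads per library, the authors' fold change column and gene positions were not used here, so no read count stands behind a value. The labels name build sacCer3, and the paper the strain's own assembly. The HMM, filters, merging within 450 bp and the minimum of 100 nt are the authors' steps.

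Deposited starts were read as counting from 0, so length was stop minus deposited start and 1 was added to starts for printing, and the ratio was taken after adding 1 to both coverages. The study's list of 4x conserved CUTs was matched by chromosome, start, stop and strand through its sheet named S288c, which holds Sigma1278b coordinates (855 of 855 found), so no S288c partner is given, and partners in other strains were taken from the same row of the list. No test was run. Named CUTs were the 5 highest and 5 lowest ratios, the 5 highest in either coverage, the 5 longest, the 3 shortest, the 3 highest in *rrp6*Δ at 0 in WT, and opposite-strand or divergent neighbours. CUTs and rules were chosen with earlier results of these data known. Pair finding, merging and ratios were tested on simulated data. Alternatives changed the pseudocount, filters, chromosome label, merging and pair distances. Values were computed with pandas 2.3.3 and NumPy 2.4.6 under Python 3.11.15, correlations and intervals with SciPy 1.17.1, and plots with matplotlib 3.10.9.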

Additional observations from a re-analysis of the deposited data

How the results depend on the processing

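No replicate could be left out and no paired analysis was possible because the annotations used here hold averages over the replicates. With a pseudocount of 0.1 in place of 1, the median ratio went from 3.64 to 7.88 and the difference between strands (plus less minus) from -0.24 to -0.70. Under this pseudocount, the difference between 4x conserved and other CUTs went from 1.41 to 3.59, and that between the chromosomes with the highest and lowest median from 0.62 (V and II) to 2.41 (XIV and XI). The longest less the shortest 25% of CUTs reversed from 0.021 to -1.99, and it was also reversed, at -0.0198, without CUTs labelled chrXII; the cause was not tested. Without the 25% of CUTs lowest in *rrp6*Δ, the median ratio was 4.16. The share of CUTs overlapping an opposite-strand CUT went from 12.9% to 14.6% after merging within 1000 bp and to 10.8% with a minimum overlap of 100 bp. Divergent neighbours went from 9.78% to 4.26% within 150 bp and 13.6% within 500 bp. The other 43 values differed from the main value by no more than a margin from 95% binomial intervals, which treat CUTs as independent. For a difference of medians, the margins of both medians were combined. The share of summed coverage is not a count of CUTs, so its margin is only a yardstick. Alternatives also kept most of the same CUTs, which makes small changes likely.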

Other observations

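On chromosome III, 3 neighbouring CUTs within 31288 to 33210, on both strands, were nearly absent in WT. In *rrp6*Δ their coverage was above the median of all CUTs (6.17), for 2 of them only slightly. CUT4425 (minus strand) was listed at 0 (WT) and 6.34 (*rrp6*Δ). Values were 0.014 and 7.19 for CUT3422 (plus strand), and 0.030 and 12.2 for CUT4426 (minus strand). None is 4x conserved. In the other 6 runs of at least 3 neighbouring CUTs with a WT coverage under 0.1, outside the label XII, the highest *rrp6*Δ coverage was between 2.92 and 5.48. This run was picked after its values were seen, and loss of Rrp6p and other differences between the WT and *rrp6*Δ strains cannot be told apart there.

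A WT coverage under 0.1 was listed for 230 CUTs, and 5 of these had an *rrp6*Δ coverage of at least 9. Besides CUT4254 and CUT4426, they were CUT4200 (chromosome II, 666078 to 666600, plus strand, 0.056 in WT and 25.3 in *rrp6*Δ), CUT3851 (chromosome VII, 871835 to 872615, plus strand, 0.069 and 11.9) and CUT3810 (chromosome V, 37182 to 37604, plus strand, 0.062 and 11.1). CUT4200 and CUT3851 are 4x conserved. These limits were also set after the values were seen.

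In the deposited annotation, 65 CUTs follow outside the order of rising *rrp6*Δ coverage. They had a median length of 816 nt against 428 nt for the other 2328, similar median ratios (3.61 and 3.64), and 64.6% of them were 4x conserved against 34.9%. CUT4425 and CUT4435 are among them.

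Outside the label XII, 214 CUTs had no other CUT within 5 kb on either strand. Their median ratio was 3.80 and their median length 461 nt.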
